A study of Mus musculus with 18 samples.

Results

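The proteasome is the barrel-shaped protease that degrades ubiquitin-tagged proteins in the cytosol and nucleus. Its core particle is a stack of rings: alpha subunits form the outer rings and the gate, beta subunits the inner rings, and a few of the beta subunits cut peptide bonds. The regulatory cap recognises, unfolds and feeds in ubiquitin-tagged substrates, while the activators PA28 and PA200 open the gate without ubiquitin. Inducible catalytic subunits replace the constitutive ones to give the immunoproteasome, which is known for making peptides for MHC class I and is switched on by interferon gamma. The genes described here are those of type protein_coding in the expression table whose symbol begins with Psma, Psmb, Psmc, Psmd, Psme, Psmf or Psmg followed by a digit. This took in 43 of the 34896 genes in the table, 19580 of which were protein coding.

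The series follows neutrophil maturation in bone marrow of adult wild-type C57BL/6 mice aged 6 to 12 weeks, with 3 RNA-seq libraries each of granulocyte-monocyte progenitors (GMP), proliferating neutrophil precursors (preNeu) and mature neutrophils (matNeu). By the study's methods, GMP were lineage-depleted c-KIT-positive, SCA1-negative cells gated on Fc gamma receptor and CD34, while preNeu and matNeu came from Mac-1-positive, Gr-1-positive cells, preNeu with high c-KIT and intermediate CXCR4 and matNeu CXCR2-positive and Siglec-F-negative. Peak lists, 1 library each and so with no replicate check, cover the chromatin remodeller CHD4 in wild-type and Gfi1-/- GMP, the histone mark H3K4me2 in the 3 wild-type cell types, and open chromatin by ATAC-seq. The expression values are TPM (transcripts per unit of library, adjusted for transcript length), a share of each library, so a gene can move because others do, and the depth behind them is unknown. Between 10754 and 12256 genes reached 1 TPM in a library, and libraries of 1 cell type correlated at 0.96 to 0.971 (Pearson, log2 values across genes, which are not independent replicates). In these bulk samples, fewer cells of a type and less RNA per cell cannot be told apart.

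Titles and cell type labels disagreed for 13 of the 18 samples, among them all 9 RNA-seq libraries, and the titles were followed. The markers fell where the titles put them. Summed over 6 GMP markers led by Mpo, the libraries held 45267, 45592 and 47154 TPM in GMP, 8320.4, 9359.6 and 9214 TPM in preNeu and 9.55, 32.7 and 9.32 TPM in matNeu. The 6 preNeu markers, led by Ngp, summed to 111, 95.4 and 113 TPM in GMP, 171432, 154067 and 145613 TPM in preNeu and 5684, 6847 and 4564 TPM in matNeu. The 7 matNeu markers, led by Retnlg, summed to 152, 149 and 167 TPM in GMP, 1269, 1333 and 1306 TPM in preNeu and 34045, 33683 and 30536 TPM in matNeu. Each list was highest in the libraries titled for its cell type, with no overlap between groups.

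Markers of other cell types were summed as well, and whether their RNA came from such cells or from the sorted ones was not tested. By the study's antibody list, lineage depletion for GMP was directed against T, B, NK, erythroid and monocytic cells among others. The Mac-1 and Gr-1 gate is meant to leave B cells out of preNeu and matNeu, and the Siglec-F gate to leave eosinophils out of matNeu. The 8 monocyte and dendritic markers, led by F13a1, summed to 2353, 2029.5 and 1957 TPM in GMP, 42.9, 43.2 and 70.6 TPM in preNeu and 332, 279 and 389 TPM in matNeu, and the 6 eosinophil, basophil and mast cell markers, led by Prg2, to 1475, 1504 and 1311 TPM in GMP, 512, 322 and 409 TPM in preNeu and 46.5, 44.1 and 51.7 TPM in matNeu. The 6 B cell markers, led by Cd79b, summed to 94.5, 78.9 and 88.2 TPM in GMP, 26.5, 46.6 and 47.2 TPM in preNeu and 62.9, 76.4 and 137 TPM in matNeu; Ebf1 and Pax5 were listed at 0 in every GMP library. The 7 T and NK cell markers summed to 461, 552 and 613 TPM in GMP, 252, 229 and 216 TPM in preNeu and 14.3, 16 and 10.2 TPM in matNeu, nearly all of it Nkg7 in GMP and preNeu, while in matNeu Cd3d, at 9.33, 14.1 and 6.57 TPM, exceeded Nkg7, at 3.05, 1.72 and 1.09 TPM. Cd3e stayed at or below 0.101 TPM throughout. The 7 erythroid markers, led by Hba-a2, summed to 7.59, 10 and 14.4 TPM in GMP, 18, 28 and 32.5 TPM in preNeu and 6.21, 30.4 and 29.1 TPM in matNeu. The monocyte and eosinophil lists were therefore highest in GMP, as most proteasome genes were. The summed B cell list and the summed monocyte and dendritic list were both higher in matNeu than in preNeu in every library. So were the inducible subunits Psmb8 and Psmb9. In the monocyte and dendritic list the rise lay in Csf1r, at 8.22, 10.9 and 22.3 TPM in preNeu and 309, 253 and 349.6 TPM in matNeu. Siglech also had a higher mean in matNeu, while F13a1, Ccr2, Ms4a6c, Flt3, Irf8 and Ly86 had lower means there than in preNeu. The part of these cells in the results was not tested.

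Proteasome transcripts took a smaller share of the library at each step. The 43 genes summed to 9634, 8934 and 9517 TPM in GMP, 5022, 4989.9 and 4542 TPM in preNeu, and 2673, 2633 and 2504 TPM in matNeu. The groups did not overlap, and the matNeu mean was 27.8% of the GMP mean. The 43 genes each reached at least 1 TPM in at least 3 libraries and were tested with limma with Benjamini-Hochberg adjustment over 13061 genes, on log2(TPM + 1), a scale that understates the change of low genes. Against GMP, 38 of the 43 were lower in preNeu and 0 were higher (also 0 at an unadjusted limma p below 0.05), beside 44.3% lower and 14.7% higher among all tested genes. Between preNeu and matNeu, 31 were lower and 5 higher, beside 39.8% and 22.9%. In matNeu against GMP, 39 were lower and 2 higher, beside 54.1% and 22.8%. The 5 that were higher in matNeu than in preNeu were Psmb8, Psmb9, Psmb11, Psme2b and Psme4, and without matNeu replicate 1 or 2 the count was 3, without Psmb11 and Psme4. The 2 that were higher in matNeu than in GMP were Psmb11 and Psme2b, and without GMP replicate 1 or 3, or any 1 matNeu library, Psme2b alone was. Without GMP replicate 2, Psme2b was also higher in preNeu than in GMP, a count of 1 in place of 0. Psmb11 could pass the filter only through matNeu and Psma8 only through GMP, so the filter set their directions. With these genes left out, 37 were lower and 0 higher in preNeu against GMP. In matNeu, 30 were then lower and 4 higher against preNeu, and 38 lower and 1 higher against GMP.

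The 3 comparisons share samples, so their values stand side by side and are not independent. The median log2 change of the 43 genes was -0.93 in preNeu against GMP, -1.31 in matNeu against preNeu and -2.01 in matNeu against GMP, where the medians of all tested genes were -0.52, -0.32 and -0.92. The median of all genes was thus itself below 0. After scaling by median of ratios the medians of all genes moved to -0.076, -0.059 and -0.17, and those of the 43 genes to -0.44, -1.03 and -1.13. Of all calls, 25%, 36.5% and 29.6% were of higher genes as deposited and 45.7%, 47.6% and 46% after that scaling; without the most abundant genes of each library they were 37.4%, 30.5% and 31.2%. After median-of-ratios scaling 19 of the 43 were lower and 1 higher in preNeu against GMP, 25 lower and 9 higher in matNeu against preNeu, and 32 lower and 6 higher in matNeu against GMP, beside 27.8% and 23.4%, 34% and 30.9%, and 41.4% and 35.3% of all tested genes lower and higher. Without the most abundant genes, 29 were lower and 0 higher, 35 and 4, and 38 and 3, beside 32.9% and 19.7%, 44.2% and 19.4%, and 51.6% and 23.3% of all. Relative to the median gene as deposited, 34, 32 and 36 of the 43 lay below it in the same order. In 29 of the 43 every GMP library exceeded every preNeu library and every preNeu library exceeded every matNeu library, beside 25.2% of all tested genes. The labels do not say that the replicates came from separate animals, so p measures the spread between these samples, which may be technical.

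**Figure D1:**
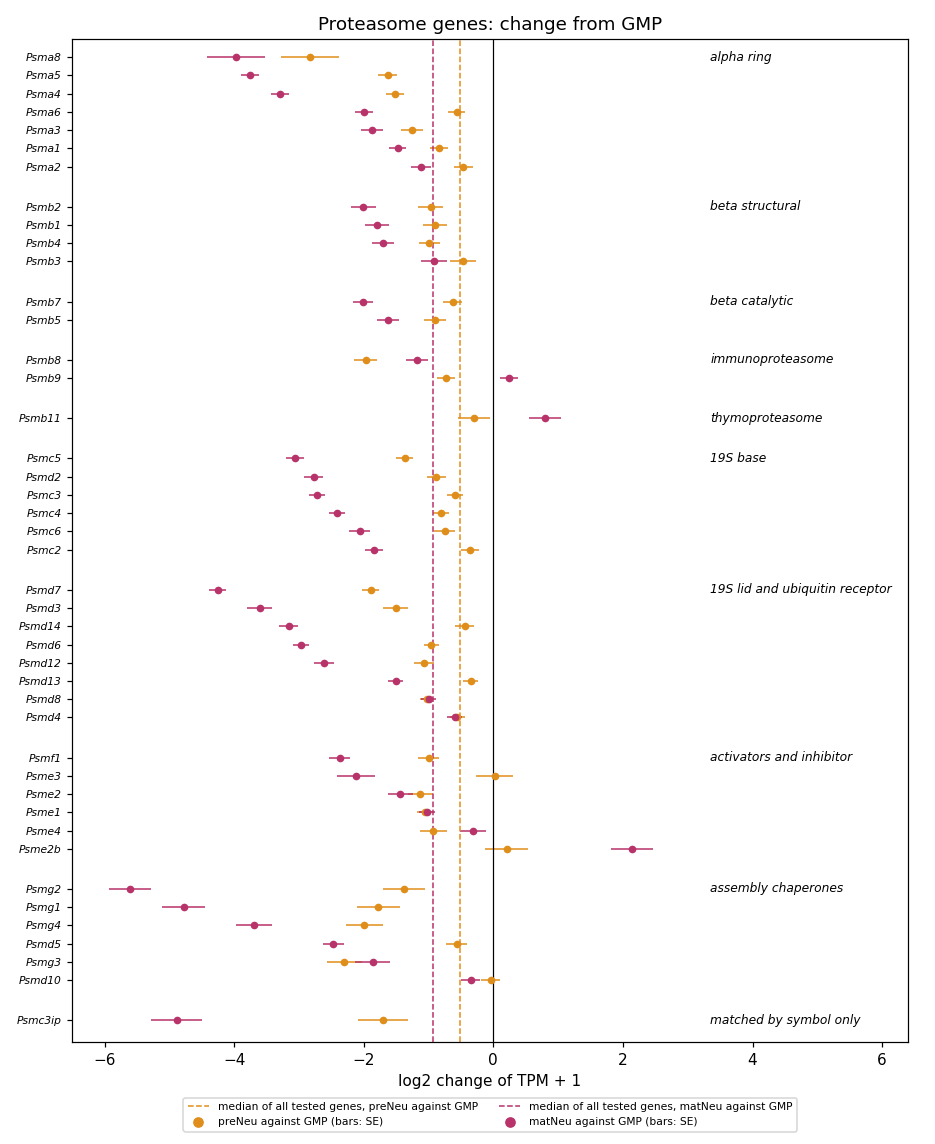
Log2 change of TPM + 1 (x axis) for each of the 43 genes (y axis, ordered by role), preNeu against GMP in orange and matNeu against GMP in purple, with SE as bars and dashed lines at the medians of all tested genes. Most purple points lie left of the purple line at -0.92; Psme2b, at 2.13, lies farthest to its right, and Psma8 was listed at 0 in matNeu. After median-of-ratios scaling the orange values of Psma2, Psmb3, Psmc2, Psmd10, Psmd13 and Psmd14 and the purple values of Psmd4, Psmd10 and Psme4 turned from below to above 0.

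The alpha ring forms the gate of the core. Its 7 genes by the rule (Psma1 to Psma6 and Psma8) were all lower in each of the 3 comparisons. Without Psma8, treated below, the medians of the other 6 were -1.04 in preNeu against GMP, -1.04 in matNeu against preNeu and -1.93 in matNeu against GMP. In the same order, 44.3%, 39.8% and 54.1% of all tested genes were lower. After median-of-ratios scaling 3, 3 and 5 of these 6 were lower, beside 27.8%, 34% and 41.4% of all. Psma2 had the smallest fall of the 7 over the whole path, with 101, 94.5 and 113 TPM in GMP, 83.9, 77 and 63.1 TPM in preNeu and 47.8, 42.1 and 50.9 TPM in matNeu. Every group stood apart from the next, and matNeu differed from GMP by -1.12 (SE 0.15) on the log2 scale (limma with Benjamini-Hochberg adjustment, adjusted p = 3.96e-05); with median-of-ratios scaling this was -0.24, not past the threshold, and preNeu against GMP turned from -0.46 to 0.047. The call of Psma2 in preNeu against GMP was also lost without GMP replicate 3 (-0.40) or preNeu replicate 3 (-0.35), and without the most abundant genes (-0.13). Psma8, an alpha subunit known from testis, measured 19.2, 11.3 and 14.6 TPM in the GMP libraries, 1.92, 0 and 2.71 in preNeu and 0, 0 and 0 in matNeu. It was listed at 0 in every matNeu library, so no fold is given, and it could pass the filter only through GMP, where it is high, so its direction is set by the filter. Its call in matNeu against preNeu was lost with no filter, and without GMP replicate 3, preNeu replicate 1 or 3, or any 1 matNeu library.

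The beta ring carries the structural subunits Psmb1 to Psmb4, which do not cut. In preNeu against GMP 3 of the 4 were lower, in matNeu against preNeu 3 and in matNeu against GMP 4. Their medians were -0.93, -0.81 and -1.75, and 44.3%, 39.8% and 54.1% of all tested genes were lower. After median-of-ratios scaling the counts were 0, 1 and 3, beside 27.8%, 34% and 41.4% of all. Psmb2 held 236, 277 and 279.6 TPM in GMP, 159, 140.3 and 109 TPM in preNeu and 82.6, 65.4 and 50.4 TPM in matNeu. Its groups did not overlap, and it fell by 2.01 on the log2 scale from GMP to matNeu (limma with Benjamini-Hochberg adjustment, adjusted p = 2.99e-06). Psmb3 held 136, 186 and 205 TPM in GMP, 146, 111 and 120.5 TPM in preNeu and 106, 101 and 70.1 TPM in matNeu. Its GMP and preNeu libraries overlapped, and only the difference between matNeu and GMP passed, at -0.92 (SE 0.20) (limma with Benjamini-Hochberg adjustment, adjusted p = 0.00157); after median-of-ratios scaling that was -0.04 and no longer passed. In preNeu against GMP, Psmb3 was -0.47 as deposited and 0.046 after that scaling; it passed as lower in a fit of these groups alone, without GMP replicate 1 (-0.64) or matNeu replicate 3 (-0.47), and so did matNeu against preNeu without GMP replicate 1 (-0.45) or matNeu replicate 1 (-0.56), or without the most abundant genes (-0.70).

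The constitutive catalytic subunits Psmb5 (chymotrypsin-like), Psmb6 (caspase-like) and Psmb7 (trypsin-like) do the cutting in most cells. Psmb5 measured 232, 231 and 277 TPM in the GMP libraries, 154, 144 and 102 in preNeu and 86.1, 80.7 and 70.2 in matNeu. Psmb7 measured 118, 97.8 and 123 TPM in the GMP libraries, 85.4, 68.2 and 64.7 in preNeu and 28.1, 27.6 and 25.5 in matNeu. In both genes every group lay below the one before it. Psmb5 fell by 1.63 (SE 0.17) and Psmb7 by 2.02 (SE 0.15) on the log2 scale from GMP to matNeu, with adjusted p = 4.84e-06 and 3.93e-07 (limma with Benjamini-Hochberg adjustment). After median-of-ratios scaling both still fell over the whole path, while neither step of Psmb5 (-0.38 and -0.36) nor the first of Psmb7 (-0.12) passed; the latter was also lost without the most abundant genes (-0.30). Psmb6 falls outside the rule because the table types it as a retained intron; it held 260.2, 245 and 254 TPM in GMP, 165, 140.1 and 126 TPM in preNeu and 54.8, 52.5 and 45.1 TPM in matNeu, again lower at each step, though the first was -0.31 and did not pass after median-of-ratios scaling.

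The inducible catalytic subunits Psmb8 and Psmb9 were lower in preNeu than in GMP and higher again in matNeu. Psmb8, which takes the place of Psmb5, measured 619, 514 and 595 TPM in the GMP libraries, 179, 160.0 and 108 in preNeu and 264, 244 and 250.5 in matNeu. The preNeu libraries were lowest, the matNeu libraries lay above all of them, and GMP was highest. Psmb8 changed by -1.97 (SE 0.17) from GMP to preNeu and by 0.79 (SE 0.17) from preNeu to matNeu on the log2 scale (adjusted p = 5.8e-06 and 0.00209, limma with Benjamini-Hochberg adjustment), leaving matNeu at -1.18 (SE 0.17) against GMP, or -0.30 and not past the threshold after median-of-ratios scaling. Psmb9, which replaces Psmb6, measured 104, 112 and 111 TPM in the GMP libraries, 64.2, 78.6 and 55.8 in preNeu and 126, 126 and 135 in matNeu. Here matNeu was highest in every library and preNeu lowest. Psmb9 changed by -0.72 (SE 0.14) and then 0.96 (SE 0.14) (adjusted p = 0.00111 and 0.000118, limma with Benjamini-Hochberg adjustment); matNeu against GMP, at 0.24 (SE 0.14), did not pass (adjusted p = 0.138, limma with Benjamini-Hochberg adjustment) but was 1.12 with adjusted p = 3.16e-05 after median-of-ratios scaling, and also passed without the most abundant genes (0.33). The first step of Psmb9 was -0.21 after median-of-ratios scaling and did not pass. Without the most abundant genes it was -0.39 and passed. Summed, the B cell markers and the monocyte and dendritic markers, given above, were also higher in matNeu than in preNeu. In the latter list Csf1r and Siglech had higher means, while F13a1, Ccr2, Ms4a6c, Flt3, Irf8 and Ly86 had lower means. The part of such cells was not tested.

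Psmb10, the inducible partner of Psmb7, is typed as a processed transcript and so lies outside the rule. It measured 128, 120.3 and 143 TPM in the GMP libraries, 34.5, 29.5 and 33.5 in preNeu and 32.6, 24.7 and 19.7 in matNeu, without the return seen in Psmb8 and Psmb9: matNeu and preNeu libraries overlapped, and the difference of -0.36 (SE 0.18) did not pass (adjusted p = 0.116, limma with Benjamini-Hochberg adjustment), though it passed as lower without matNeu replicate 1, at -0.54, and without the most abundant genes, at -0.60. Psmb11, the thymoproteasome subunit of cortical thymic epithelium, reached 1.95, 1.53 and 1.31 TPM in matNeu and at most 0.639 TPM in any other library. It entered the test only through matNeu, where it is high, so its direction is set by the filter.

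Within a library, the difference between an inducible subunit and the constitutive one it replaces hardly depends on the scaling of TPM. Log2(TPM + 1) of Psmb8 minus Psmb5 was 1.41, 1.15 and 1.10 in GMP, 0.22, 0.15 and 0.079 in preNeu and 1.61, 1.58 and 1.82 in matNeu. The groups did not overlap: preNeu, the lowest, was -1.07 (SE 0.10) against GMP, and matNeu, the highest, was 1.52 (SE 0.086) against preNeu. For Psmb9 minus Psmb6 the values were -1.32, -1.13 and -1.18 in GMP, -1.35, -0.83 and -1.17 in preNeu and 1.18, 1.25 and 1.56 in matNeu. GMP and preNeu overlapped, differing by 0.10 (SE 0.16), which was -0.048 without preNeu replicate 2. Every matNeu library lay above 0, 2.44 (SE 0.19) above preNeu. For Psmb10 minus Psmb7 the values were 0.12, 0.30 and 0.21 in GMP, -1.28, -1.18 and -0.93 in preNeu and 0.21, -0.15 and -0.36 in matNeu, lowest in preNeu and overlapping between matNeu and GMP. In a two-sided exact permutation test, 7 of the 9 differences gave p = 0.1, the smallest that 3 against 3 libraries allow, with adjusted p = 0.129 over the 9 tests, so none can pass 0.05. The exact p was 0.8 for Psmb9 minus Psmb6 in preNeu against GMP and 0.3 for Psmb10 minus Psmb7 in matNeu against GMP.

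**Figure D2:**
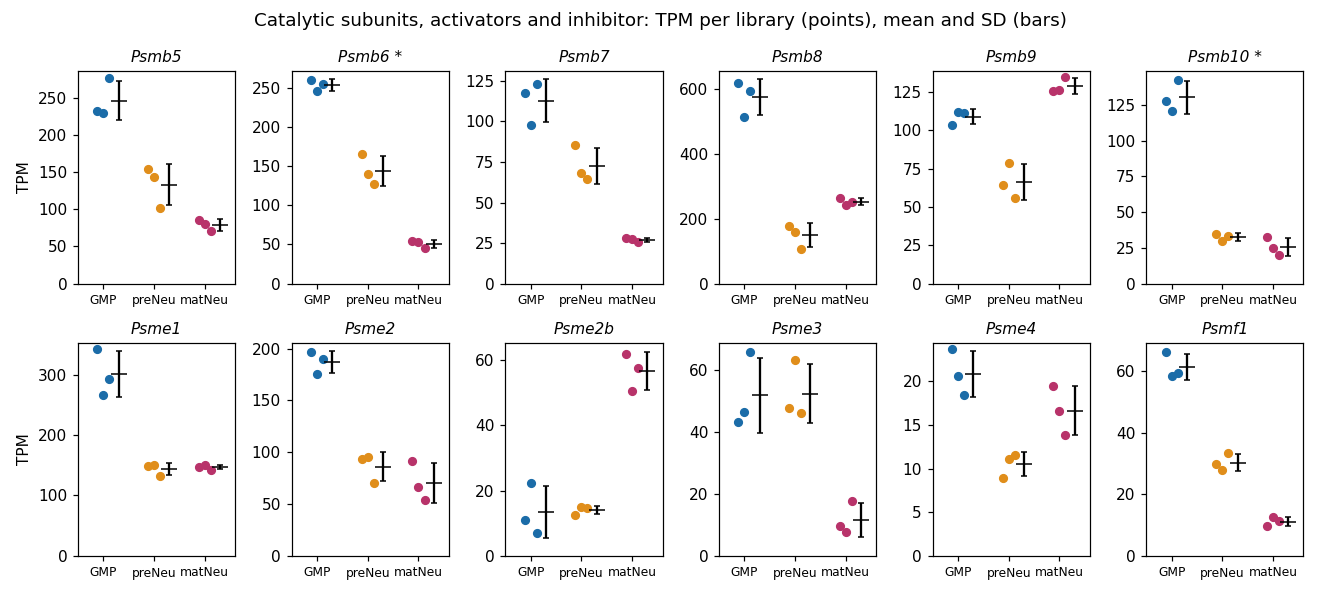
TPM (y axes, each from 0) of 12 genes in the GMP, preNeu and matNeu libraries (x axes), with points for libraries and black bars for mean and SD (n = 3 each); an asterisk marks genes that the table types otherwise. Psmb8 and Psmb9 are lowest in preNeu, and Psmb9 and Psme2b are highest in matNeu.

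In the regulatory cap, the base holds the ATPase ring Psmc1 to Psmc6, which unfolds substrates, and the large subunits Psmd1 and Psmd2; its 6 genes by the rule summed to 1793 ± 53.5 TPM in GMP, 1037 ± 55 in preNeu and 314 ± 18.3 in matNeu (mean ± SD, n = 3). All 6 were lower in each comparison, with medians of -0.78, -1.65 and -2.56, beside 44.3%, 39.8% and 54.1% of all tested genes lower. After median-of-ratios scaling 2, 6 and 6 were lower, beside 27.8%, 34% and 41.4% of all. The 6 ranged from -3.06 to -1.84 in matNeu against GMP. Psmc5 held 263, 284 and 314 TPM in GMP, 116, 111 and 104 TPM in preNeu and 38.4, 33.1 and 29.2 TPM in matNeu. Psmc2 held 175, 160.0 and 167 TPM in GMP, 129, 137 and 124 TPM in preNeu and 48.5, 38.4 and 52.1 TPM in matNeu. Both went down at each step without overlap, Psmc5 by -3.06 and Psmc2 by -1.84 on the log2 scale over the whole path (adjusted p = 6.59e-09 and 3.17e-07, limma with Benjamini-Hochberg adjustment). For Psmc2, the first step of -0.36 turned to 0.15 after median-of-ratios scaling, and its call was lost without any 1 GMP or preNeu library (-0.40 to -0.33) and without the most abundant genes (-0.029), as well as without the variance trend.

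The lid removes ubiquitin chains, through the deubiquitinase Psmd14, and Psmd4 is a ubiquitin receptor. Their 8 genes by the rule summed to 2150.3 ± 92.1, 1188 ± 87 and 533 ± 8.99 TPM in GMP, preNeu and matNeu. In preNeu and in matNeu all 8 were lower than in GMP, and 6 were lower in matNeu than in preNeu. In that order their medians were -0.99, -2.79 and -1.78, and 44.3%, 54.1% and 39.8% of all tested genes were lower. After median-of-ratios scaling 5 and 6 were still lower in preNeu and matNeu against GMP, with 1 higher in matNeu. In matNeu against preNeu 6 were then lower and 2 higher. In the same order, 27.8%, 41.4% and 34% of all were lower and 23.4%, 35.3% and 30.9% higher on that scale. Psmd13 and Psmd14 turned above 0 in preNeu against GMP on that scale, at 0.16 and 0.071. Their calls there were also lost without GMP replicate 1 or 2 or preNeu replicate 1 or 2, at -0.35 to -0.28 for Psmd13 and -0.44 to -0.32 for Psmd14, and without the most abundant genes, at -0.015 and -0.11; without the variance trend in the fit neither passed. The 8 ranged from -4.25 to -0.60 in matNeu against GMP. Psmd7 held 294, 292 and 275 TPM in GMP, 76.1, 70.9 and 82.4 TPM in preNeu and 12.5, 15.4 and 14.5 TPM in matNeu. It fell by 4.25 (SE 0.13) on the log2 scale, with no overlap at either step (adjusted p = 6.58e-10, limma with Benjamini-Hochberg adjustment). Psmd4 held 235, 219 and 249.6 TPM in GMP, 148, 179 and 151 TPM in preNeu and 153, 154 and 157 TPM in matNeu. Its preNeu and matNeu libraries overlapped, and its direction depended on the scaling: matNeu against GMP was -0.60 as deposited and 0.28 after median-of-ratios scaling, past the threshold both times. Its value in matNeu against preNeu, -0.041, did not pass as deposited, but passed as higher after median-of-ratios scaling (0.33) and as lower without the most abundant genes (-0.28). In preNeu against GMP its call was lost under both, at -0.045 and -0.22.

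**Figure D3:**
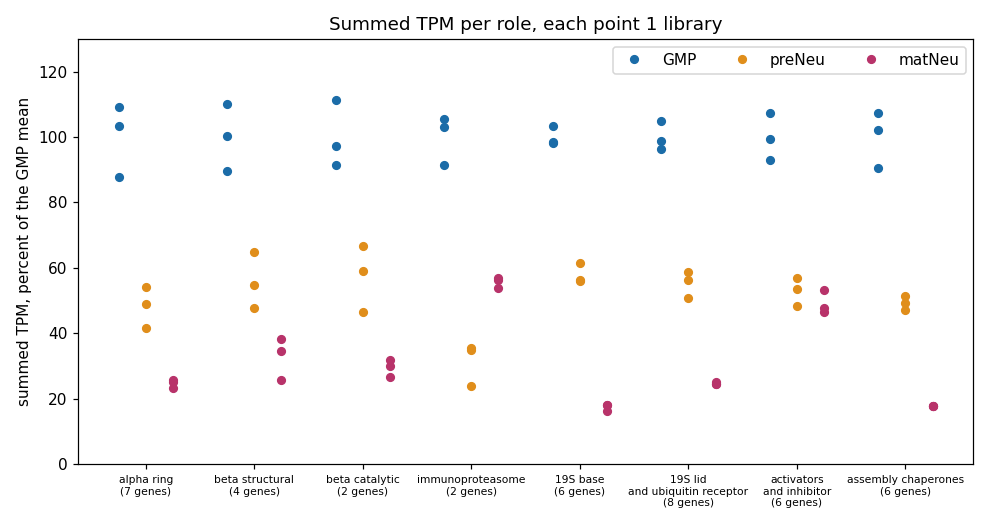
Summed TPM of each role as a percent of its mean in GMP (y axis, from 0) for 8 roles (x axis), each point 1 library. In matNeu the 19S base lies at 17.5% and the assembly chaperones at 17.8% of the GMP mean, against 55.7% for the immunoproteasome and 49.3% for activators and inhibitor. The immunoproteasome here is Psmb8 and Psmb9 alone. With Psmb10 added, which is not drawn, its sum is 49.9%. After median-of-ratios scaling the median log2 change in matNeu against GMP turned from -0.47 to 0.41 for the immunoproteasome, and stayed below 0 for the base, chaperones and activators. The -0.47 is the median of -1.18 for Psmb8 and 0.24 for Psmb9.

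The activators differed among themselves. PA28 alpha (Psme1) and beta (Psme2) form the interferon-inducible ring on the core. Psme1 measured 342, 267 and 292 TPM in the GMP libraries, 149, 150.4 and 132 in preNeu and 148, 150.3 and 143 in matNeu. Psme2 measured 197, 176 and 189.8 TPM in the GMP libraries, 93.1, 95 and 70.3 in preNeu and 91.1, 66.1 and 53.4 in matNeu. Both were lower in preNeu than in GMP without overlap, at -1.05 (SE 0.12) and -1.12 (SE 0.19) (adjusted p = 3.36e-05 and 0.000553, limma with Benjamini-Hochberg adjustment), and their preNeu and matNeu libraries overlapped. After median-of-ratios scaling Psme1 was 0.40 in matNeu against preNeu, past the threshold, and -0.14 against GMP, not past it; Psme2 turned from -0.31 to 0.054 in matNeu against preNeu, and passed as lower there without matNeu replicate 1, at -0.52, and without the most abundant genes, at -0.55. Psme2b, a near-identical copy of Psme2, measured 10.9, 22.5 and 7.05 TPM in the GMP libraries, 12.6, 15.1 and 14.6 in preNeu and 62, 50.5 and 57.5 in matNeu. It stood apart only in matNeu, 1.93 (SE 0.32) above preNeu (adjusted p = 0.000362, limma with Benjamini-Hochberg adjustment), and without GMP replicate 2, its highest GMP library, preNeu against GMP was 0.62 and passed. Reads may be split between the copies, so the values of Psme2 and Psme2b are uncertain.

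PA28 gamma (Psme3) is the nuclear activator. Psme3 held 43.3, 46.6 and 65.7 TPM in GMP, 47.9, 63.3 and 46 TPM in preNeu and 9.51, 7.62 and 17.9 TPM in matNeu. GMP and preNeu overlapped, and matNeu lay below both, -2.14 (SE 0.29) against preNeu (adjusted p = 6.79e-05, limma with Benjamini-Hochberg adjustment). PA200 (Psme4) held 23.6, 20.6 and 18.4 TPM in GMP, 8.9, 11.1 and 11.5 TPM in preNeu and 19.4, 16.6 and 13.8 TPM in matNeu. It was lowest in preNeu and rose by 0.61 in matNeu (adjusted p = 0.0232, limma with Benjamini-Hochberg adjustment), a call lost without the most abundant genes (0.39), without preNeu replicate 1 (0.51) and without matNeu replicate 1 (0.50) or 2 (0.61); against GMP, matNeu was -0.31 as deposited and 0.52 after median-of-ratios scaling. PI31 (Psmf1), known as an inhibitor of the core in vitro, held 66.3, 58.4 and 59.4 TPM in GMP, 29.8, 27.7 and 33.4 TPM in preNeu and 9.66, 12.5 and 11.2 TPM in matNeu. It stepped down without overlap, by -2.37 over the whole path (adjusted p = 1.81e-07, limma with Benjamini-Hochberg adjustment).

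Chaperones assemble the core (Psmg1 to Psmg4) and the base (Psmd5, Psmd10 and, outside the rule, Psmd9). The 6 by the rule had a median of -1.58 in preNeu against GMP and -3.08 in matNeu against GMP. Psmg2 held 107, 83.6 and 119 TPM in GMP, 44.3, 44.2 and 29.6 TPM in preNeu and 0.521, 2.64 and 0.72 TPM in matNeu. It was -4.23 (SE 0.32) in matNeu against preNeu on the log2 scale (adjusted p = 9.01e-07, limma with Benjamini-Hochberg adjustment). Psmd10, also called gankyrin, held 48.3, 48.1 and 61.9 TPM in GMP, 53, 50.7 and 49 TPM in preNeu and 38.4, 44 and 40.8 TPM in matNeu. Its GMP and preNeu libraries overlapped, and its direction turned with the scaling, from -0.35 to 0.52 in matNeu against GMP; as deposited the adjusted p was 0.0492 (limma with Benjamini-Hochberg adjustment), and the call was lost without the variance trend, in a fit of the compared groups alone, without any 1 of the 9 libraries (-0.41 to -0.23) and without the most abundant genes (-0.26), where matNeu against preNeu passed as lower (-0.55). Psmc3ip matched the rule by its symbol but is a meiotic recombination factor; it held 48.3, 43.6 and 46.3 TPM in GMP, 15.9, 16.3 and 9.27 TPM in preNeu and 2.1, 0.305 and 0 TPM in matNeu, lower at each step, though with a pseudocount of 0.1 the first, at -1.77, did not pass.

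Besides Psmb6 and Psmb10, 5 more subunit genes were typed otherwise in the table and so left out: Psma7, Psmd1 and Psmd11 as retained introns, Psmc1 and Psmd9 as processed transcripts. By limma with Benjamini-Hochberg adjustment, all 7 were lower in preNeu and in matNeu than in GMP, and 5 were lower in matNeu than in preNeu. In that order their medians were -1.15, -2.32 and -1.48, and 44.3%, 54.1% and 39.8% of all tested genes were lower. Psmd1, the large base subunit, measured 255, 282 and 233 TPM in the GMP libraries, 84.4, 105 and 114 in preNeu and 17.6, 20.7 and 24.5 in matNeu. Psma7 measured 487, 446 and 542 TPM in the GMP libraries, 149, 137 and 113 in preNeu and 128, 134 and 88.3 in matNeu. Psmd1 went down at both steps, and the preNeu and matNeu libraries of Psma7 overlapped. With these 7 counted, 45 of 50 genes were lower in preNeu than in GMP and 46 of 50 lower in matNeu than in GMP. After median-of-ratios scaling, 4, 7 and 5 of the 7 were lower in preNeu against GMP, matNeu against GMP and matNeu against preNeu. Of the 50, 23 were then lower and 1 higher in preNeu and 39 lower and 6 higher in matNeu against GMP. In the same order, 27.8%, 41.4% and 34% of all tested genes were lower and 23.4%, 35.3% and 30.9% higher on that scale.

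Partners of the proteasome with other names were read the same way. By limma, of 10 tested (the 0 was also 0 at an unadjusted p below 0.05), 1 was higher and 6 lower in preNeu against GMP, 0 higher and 7 lower in matNeu against preNeu, and 1 higher and 7 lower in matNeu against GMP, beside 14.7% and 44.3%, 22.9% and 39.8%, and 22.8% and 54.1% of all tested genes. With median-of-ratios scaling the counts of higher and lower were 3 and 3, 1 and 3, and 2 and 6 in the same order, beside 23.4% and 27.8%, 30.9% and 34%, and 35.3% and 41.4% of all. The ubiquitin receptor Adrm1 held 165, 175 and 180.0 TPM in GMP, 98.9, 108 and 102 TPM in preNeu and 62.2, 75.3 and 70 TPM in matNeu, lower at each step without overlap, though after median-of-ratios scaling neither step passed (-0.24 and -0.20). Sem1, a small lid subunit, held 19.3, 36 and 27.8 TPM in GMP, 40, 36.5 and 34.5 TPM in preNeu and 42.3, 28.8 and 39.6 TPM in matNeu, with all groups overlapping; its values of 0.44 in preNeu and 0.42 in matNeu against GMP passed as higher without GMP replicate 2 (0.65 and 0.63), and matNeu also without matNeu replicate 2 (0.59). Both passed as higher after median-of-ratios scaling (0.94 and 1.28), and preNeu also without the most abundant genes (0.77). Pomp, the chaperone of core maturation, held 78.2, 98.2 and 81.7 TPM in GMP, 59.1, 41.1 and 46.2 TPM in preNeu and 37, 22 and 17.4 TPM in matNeu, lower at each step, though the first was lost without GMP replicate 2 (-0.72) or preNeu replicate 2 (-0.70), or the most abundant genes (-0.49), and neither passed after median-of-ratios scaling (-0.31 and -0.61). Usp14, a deubiquitinase of the cap, had the lowest value of the list in matNeu against GMP, -6.04 (SE 0.35), followed by Txnl1 at -3.20 (SE 0.15). Zfand5, which binds the proteasome, was highest at 2.34 (SE 0.57) (adjusted p = 0.00324, limma with Benjamini-Hochberg adjustment). Its libraries spread widely, at 15.2, 30.8 and 105.7 TPM in GMP and 112.1, 209.1 and 301.5 TPM in matNeu.

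The transcription factor NRF1 (Nfe2l1) drives proteasome genes when proteasome activity is low. Nfe2l1 held 22.5, 27.2 and 37.6 TPM in GMP, 13.4, 25.1 and 28.6 TPM in preNeu and 19.2, 17.6 and 23.2 TPM in matNeu. Its groups overlapped and no comparison passed; the values, -0.40, -0.10 and -0.50 in preNeu against GMP, matNeu against preNeu and matNeu against GMP, turned to 0.10, 0.26 and 0.35 after median-of-ratios scaling. Of the 6 activator genes, 1 was higher and 2 lower in preNeu against GMP, 1 higher and 2 lower in matNeu against preNeu, and 2 higher and 3 lower in matNeu against GMP, beside 14.7% and 44.3%, 22.9% and 39.8%, and 22.8% and 54.1% of all tested genes. With median-of-ratios scaling the counts of higher and lower were 1 and 1, 2 and 2, and 2 and 2 in the same order, beside 23.4% and 27.8%, 30.9% and 34%, and 35.3% and 41.4% of all. As deposited, Nfe2l2 (0.96, SE 0.15) and Ngly1, which deglycosylates NRF1 (1.74, SE 0.16), were higher in matNeu than in GMP, and Vcp (-2.46, SE 0.12) and the NRF2 inhibitor Keap1 (-1.89, SE 0.20) lower. Of 11 ubiquitin and shuttle genes, 1 was higher and 3 lower in preNeu against GMP, 2 higher and 7 lower in matNeu against preNeu, and 2 higher and 7 lower in matNeu against GMP, beside 14.7% and 44.3%, 22.9% and 39.8%, and 22.8% and 54.1% of all tested genes. With median-of-ratios scaling the counts of higher and lower were 3 and 3, 2 and 4, and 2 and 5 in the same order, beside 23.4% and 27.8%, 30.9% and 34%, and 35.3% and 41.4% of all. In matNeu against GMP, the polyubiquitin gene Ubb was higher (1.17, SE 0.17) and the shuttle factor Ubqln4 lower (-4.02, SE 0.27).

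Peptides cut by the immunoproteasome are carried by TAP into the endoplasmic reticulum and loaded onto MHC class I. By limma, of 11 genes of this path (the 0 was also 0 at an unadjusted p below 0.05), 0 were higher and 8 lower in preNeu against GMP, 6 higher and 5 lower in matNeu against preNeu, and 3 higher and 5 lower in matNeu against GMP, beside 14.7% and 44.3%, 22.9% and 39.8%, and 22.8% and 54.1% of all tested genes. With median-of-ratios scaling the counts of higher and lower were 2 and 6, 6 and 4, and 6 and 5 in the same order, beside 23.4% and 27.8%, 30.9% and 34%, and 35.3% and 41.4% of all. Tap1 measured 123, 139 and 133 TPM in the GMP libraries, 48.4, 61 and 60.2 in preNeu and 132, 119.8 and 152 in matNeu. B2m, the light chain of class I, measured 1461, 1189 and 1781 TPM in the GMP libraries, 1426, 1112 and 1285 in preNeu and 2844, 2309 and 2139 in matNeu. Tap1 was lowest in preNeu and overlapped between GMP and matNeu, and B2m was highest in matNeu without overlap. For Tap1, matNeu against GMP passed as higher after median-of-ratios scaling, at 0.90. From preNeu to matNeu the class I heavy chain H2-D1 rose by 2.87, Tap1 by 1.24, Tapbp by 1.01 and B2m by 0.93 on the log2 scale (adjusted p = 2.71e-09, 1.86e-05, 5.22e-05 and 0.000531, limma with Benjamini-Hochberg adjustment). The loading chaperones Calr (-2.79, SE 0.17) and Canx (-2.70, SE 0.14) fell over the same step. Against GMP, preNeu values of Tapbp (-0.22), H2-D1 (-0.12) and B2m (-0.20) did not pass and turned to 0.29, 0.40 and 0.31 after median-of-ratios scaling.

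By limma, of 11 interferon and class I regulators (the 0 was also 0 at an unadjusted p below 0.05), 2 were higher and 3 lower in preNeu against GMP, 8 higher and 0 lower in matNeu against preNeu, and 8 higher and 2 lower in matNeu against GMP, beside 14.7% and 44.3%, 22.9% and 39.8%, and 22.8% and 54.1% of all tested genes. With median-of-ratios scaling the counts of higher and lower were 5 and 3, 10 and 0, and 9 and 2 in the same order, beside 23.4% and 27.8%, 30.9% and 34%, and 35.3% and 41.4% of all. Irf2 (2.31, SE 0.21) and the kinase Jak1 (2.35, SE 0.14) had the highest values in matNeu against GMP. Irf8 (-5.53, SE 0.30) and the interferon gamma receptor chain Ifngr1 (-1.16, SE 0.12) had the lowest. Irf8 is also a monocyte and dendritic marker and was part of that list.

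The promoters of the 43 genes were read from 2 kb before to 500 bp after the gene start in the GRCm38 annotation. None held a CHD4 peak in wild-type GMP or in Gfi1-/- GMP: 0 of 43 (Wilson 95% interval 0 to 8.2%), where 13.2% and 2.58% of 10291 protein-coding genes past the same TPM filter had one. The 2 lists held 35790 and 7316 peaks, so these shares are not compared between the genotypes. The paper reports far fewer CHD4 peaks in wild-type GMP, so the wild-type list is not its peak set. H3K4me2, a mark of active and primed promoters, lay at 36 of 43 in GMP, 38 in preNeu and 38 in matNeu, or 83.7%, 88.4% and 88.4%, beside 86.7%, 89.4% and 88.2% of those genes. In GMP this depended on the cutoff: with a −log10 q of at least 5 it was 7 of 43 (16.3%) beside 36.2%, where preNeu and matNeu kept 86% and 86% beside 86.7% and 85%. Psma6, Psmd5, Psmf1, Psmb11 and Psme2b had no H3K4me2 peak in this window in any of the 3 lists. Their mean TPM in GMP was 318, 151, 61.4, 0.49 and 13.5 in this order. The gene start used was the outer end of the annotated gene, so a peak at another start of the gene could be missed. This was not tested. The strongest H3K4me2 peak at a promoter had a median fold enrichment of 3.42, 10.6 and 8.59 for the 43 genes and 3.57, 10.5 and 8.5 for all, in GMP, preNeu and matNeu. Enrichments of separate libraries are not on 1 scale, so they are not compared between cell types. The preNeu and matNeu ATAC lists held the same peaks and were used as 1 list; a peak lay at 33 of 43 (76.7%, Wilson 95% interval 62.3 to 86.8%) beside 62.4% of 10291 protein-coding genes past the same TPM filter. The promoters of Psmd2, Psmc3ip, Psma6, Psmb8, Psmd5, Psmg3, Psmf1, Psma8, Psmb11 and Psme2b had no ATAC peak. The limit on the gene start applies here too.

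Psmb8 and Psmb9 lie side by side on chromosome 17 with Tap1 and Tap2, in the class II region of the mouse MHC. Psmb9 (chr17:34181987-34187764, minus strand) and Tap1 (chr17:34187553-34197225, plus strand) overlap head to head as annotated in GENCODE, with starts 211 bases apart. The paper names a stranded library kit, and whether strand was used in making the TPM is unknown. If it was not, reads in the overlap could be counted to either gene. An H3K4me2 peak spanned both starts in each list, chr17:34185708-34189696 in GMP (fold enrichment 3.94), chr17:34185534-34190215 in preNeu (11.6) and chr17:34184846-34189442 in matNeu (9.01), and the ATAC peak lay at chr17:34186976-34187950. Psmb8 (chr17:34197721-34201454, plus strand) had an H3K4me2 peak at its start in each list and no ATAC peak. A gene start on the other strand within 1 kb was found at 11 of the 43 genes (25.6%) beside 16.2% of the 10291, among them Psmc2 and Dnajc2 (32 bases), Psma2 and Mrpl32 (75 bases) and Psmb1 and Tbp (137 bases).

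**Figure D4:**
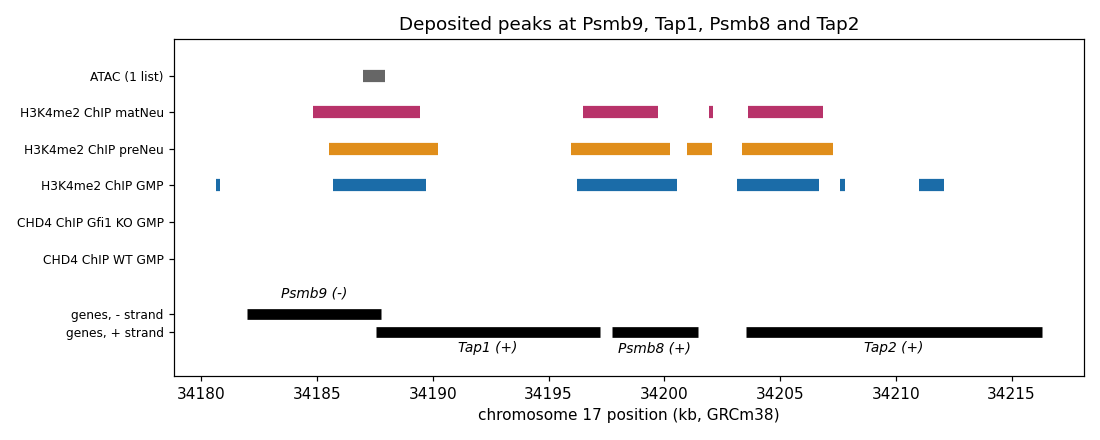
Genes (black, by strand) and deposited peaks (coloured bars) at Psmb9, Tap1, Psmb8 and Tap2 along chromosome 17 (x axis, kb, GRCm38), with 1 row for each peak list. H3K4me2 peaks cover the starts of Psmb9, Tap1 and Psmb8 in each cell type, and neither CHD4 list has a peak here.

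RefSeq promoters (GRCm38.p6, 250 bases before to 50 after the gene start) were found by symbol for 35 of the 43 genes and were searched on both strands, beside those of 27025 genes. These 27025 were not filtered by expression or gene type, unlike the 10291 genes set beside the peaks. Shares among expressed protein-coding genes alone were not taken. The core of the antioxidant response element, TGACNNNGC, the site of NRF1 and NRF2, matched in 4 of 35 (11.4%) beside 14%. The interferon-type motif GAAANNGAA matched in 6 of 35 (17.1%) beside 9.76%, but with only the 250 bases before the start in 2 of 35 (5.71%) beside 8.18%. The STAT motif TTCNNNGAA, which reads the same on both strands, matched in 3 of 35 (8.57%) beside 9.55%. The ETS motif CCGGAAG matched in 13 of 35 (37.1%) beside 9.93%, in Psmd4, Psmd2, Psmc3ip, Psmd12, Psma6, Psmd6, Psmc6, Psmg1, Psmd13, Psmc2, Psmg3, Psme4 and Psme3. CCAAT matched in 13 of 35 (37.1%) beside 41.1%. A match describes letters and is not a site.

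Promoters are shown for the constitutive Psmb5 and its inducible replacement Psmb8, which moved apart from preNeu to matNeu, for Psmb9 and Psme1 of the interferon-inducible set, and for Psmd4, whose preNeu and matNeu libraries overlapped (from RefSeq, GRCm38.p6, 5′ to 3′ on the gene's strand; capitals mark matches to the motifs above). Psmb5 (chr14:54617946-54618245, minus strand) holds TGACNNNGC, Psmb8 (chr17:34197945-34198244, plus strand) TTCNNNGAA, Psmb9 (chr17:34187281-34187580, minus strand) CCAAT, Psme1 (chr14:55578244-55578543, plus strand) GAAANNGAA, and Psmd4 (chr3:95042565-95042864, minus strand) CCGGAAG, GAAANNGAA and CCAAT. The RefSeq starts of Psmb5, Psmb8, Psmb9 and Psme1 lie inside the genes as annotated in GENCODE, and that of Psmd4 lies at the same base.
Psmb5: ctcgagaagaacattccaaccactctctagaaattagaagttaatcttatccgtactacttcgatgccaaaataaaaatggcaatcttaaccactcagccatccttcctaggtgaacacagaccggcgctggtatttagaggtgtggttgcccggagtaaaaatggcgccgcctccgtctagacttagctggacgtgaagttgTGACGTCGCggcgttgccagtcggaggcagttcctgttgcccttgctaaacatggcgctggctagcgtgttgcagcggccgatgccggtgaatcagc
Psmb8: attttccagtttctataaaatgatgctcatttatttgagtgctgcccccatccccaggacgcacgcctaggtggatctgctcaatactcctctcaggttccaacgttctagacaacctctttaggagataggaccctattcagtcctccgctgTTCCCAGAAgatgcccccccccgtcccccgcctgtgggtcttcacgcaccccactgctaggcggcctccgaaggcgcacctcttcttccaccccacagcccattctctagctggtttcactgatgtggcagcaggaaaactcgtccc
Psmb9: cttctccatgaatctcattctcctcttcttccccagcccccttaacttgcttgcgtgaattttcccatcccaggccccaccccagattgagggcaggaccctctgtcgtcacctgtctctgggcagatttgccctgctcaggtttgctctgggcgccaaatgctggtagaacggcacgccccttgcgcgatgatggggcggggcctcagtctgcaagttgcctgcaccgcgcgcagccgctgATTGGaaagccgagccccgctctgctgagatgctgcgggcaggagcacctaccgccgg
Psme1: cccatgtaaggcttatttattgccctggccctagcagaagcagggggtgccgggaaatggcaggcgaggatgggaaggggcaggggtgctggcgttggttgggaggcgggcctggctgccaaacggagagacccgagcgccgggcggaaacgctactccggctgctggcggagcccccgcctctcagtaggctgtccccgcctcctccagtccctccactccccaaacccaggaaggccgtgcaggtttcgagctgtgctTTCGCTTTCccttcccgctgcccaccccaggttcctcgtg
Psmd4: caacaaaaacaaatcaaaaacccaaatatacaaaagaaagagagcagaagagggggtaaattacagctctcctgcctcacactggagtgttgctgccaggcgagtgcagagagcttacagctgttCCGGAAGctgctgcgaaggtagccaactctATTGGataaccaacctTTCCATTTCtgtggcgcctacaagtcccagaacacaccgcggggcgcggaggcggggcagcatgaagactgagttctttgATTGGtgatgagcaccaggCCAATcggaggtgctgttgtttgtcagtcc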

How the data were processed

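The expression values are TPM as deposited by the authors; their sources name both kallisto and a count workflow (HTSeq and DESeq), so how the TPM were made is not fully clear. The peak lists hold the fold enrichment over background and the −log10 q-value that the authors' peak caller gave each peak, as deposited, in mm10 coordinates. The submitters' processing notes name BWA 0.7.17, FastQC 0.11.5, MACS2 2.1.0, MultiQC 1.6, Trimmomatic 0.36 and kallisto 0.44.0, with no role or order. H3K4me3 and GFI1 peak lists were not used here, because their coordinates could not be placed on GRCm38, and the 2 ATAC lists, which hold the same peaks, were used as 1.

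A gene was tested if 3 or more of the 9 RNA-seq libraries held it at 1 TPM or above. The test was made on log2(TPM + 1) with limma 3.58.1 (R 4.3.3), in 1 fit over the 9 libraries with a variance trend. P-values were adjusted by Benjamini-Hochberg over all tested genes, with a threshold of 0.05. The fit was also tested on simulated data, with no outcome reported here. Ratios of catalytic subunits were compared with two-sided exact permutation tests in Python 3.11.15. Promoters were taken from GENCODE M21 and promoter sequences from RefSeq (GRCm38.p6), and a peak counted with an overlap of at least 1 base.

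The members and gene lists were chosen with earlier results of these data known. Values per library were given for the catalytic subunits, the activators and the inhibitor, for Adrm1, Sem1, Pomp, Nfe2l1, Tap1 and B2m, and for the genes with the highest and lowest log2 change of matNeu against GMP in each other role; of each pathway list the 2 highest and 2 lowest were named, except some not reported here. Psma7, Psmd1, Psmd13, Psmd14, Cd3d, Cd3e, Nkg7, Csf1r and the other monocyte and dendritic markers were named beyond that rule, after their values were seen. So were the genes at starts on the other strand, and the values per library of Zfand5 were added in the same way. The lists were proteasome partners, proteasome gene activators, ubiquitin and shuttle factors, MHC class I presentation, interferon and class I regulators, and the markers of GMP, preNeu, matNeu, monocytes and dendritic cells, B cells, T and NK cells, erythroid cells, and eosinophils, basophils and mast cells. The alternatives were a pseudocount of 0.1, no filter, a filter of 5 TPM, median-of-ratios scaling, TPM rescaled without the 30 most abundant genes, a fit of the compared groups alone, the replicate number as a block, no variance trend, each library left out, stricter peaks, other promoter windows and overlaps, and equal numbers of H3K4me2 peaks.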

Additional observations from a re-analysis of the deposited data

How the results depend on the processing

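The counts of lower genes in matNeu against preNeu and against GMP kept within 1.5 times their value under every alternative tried. After median-of-ratios scaling, the counts of higher genes were 1 in preNeu against GMP, 9 in matNeu against preNeu and 6 in matNeu against GMP, and 19 genes were lower in preNeu against GMP. Higher in matNeu against GMP was 1 gene with a pseudocount of 0.1 and 1 with a filter of at least 5 TPM, which Psmb11 does not reach. Values that median-of-ratios scaling turned from below to above 0 included Psme4 (0.52), Psmd4 (0.28) and Psmd10 (0.52) in matNeu against GMP. Psmd4 in matNeu against preNeu (0.33) was another. In preNeu against GMP they included Psma2 (0.047), Psmc2 (0.15), Psmd10 (0.46), Psmd13 (0.16), Psmd14 (0.071), Psmb3 (0.046), Tapbp (0.29), H2-D1 (0.40) and B2m (0.31). Apart from the filter, the cause was not tested.

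With 1 library left out, 0 to 1 genes were higher and 35 to 39 lower in preNeu against GMP, 3 to 5 higher and 30 to 32 lower in matNeu against preNeu, and 1 to 2 higher and 38 lower in matNeu against GMP. The ratio of Psmb9 to Psmb6 in preNeu against GMP ran from -0.048 (without preNeu replicate 2) to 0.21; the other 8 ratio differences kept their direction. Of 2479 values of 49 named genes in 147 changes, 2352 kept their call (higher, lower or neither), 2319 of them also their direction. The alternatives differed in this. After median-of-ratios scaling 108 of the 147 kept their call, 19 lost it, 11 gained one and 9 turned direction. Without the most abundant genes 123 kept it, 8 lost it and 10 gained one. Chosen after seeing the data, counting the 7 genes of other types gave 0 higher and 45 lower, 5 and 36, and 2 and 46; leaving out Psmc3ip gave 0 and 37, 5 and 30, and 2 and 38; leaving out Psma8 and Psmb11 gave 0 and 37, 4 and 30, and 1 and 38.

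H3K4me2 in GMP lay at 16.3% of the promoters with a −log10 q of at least 5 and at 55.8% with an overlap of at least 50% (36.2% and 66.0% of all genes), and ATAC peaks at 51.2% with that q (38.1% of all genes). GAAANNGAA matched in 5.71% with only the 250 bases before the start (8.18% of the 27025 genes with a RefSeq promoter).

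Whether the replicate numbers pair the samples could not be settled with 3 libraries per cell type. Same-numbered libraries deviated together with correlations of -0.04 to 0.12, beside -0.13 to 0.071 for libraries of other numbers. The highest value was that of preNeu replicate 3 with matNeu replicate 3, and 4 of 9 libraries correlated best with their own number. With the replicate block, 37 genes were lower in preNeu against GMP and 38 in matNeu against GMP, losing Psmc2 and Psmd10; the other counts of calls were the same. Without the variance trend, 35 genes were lower in preNeu against GMP, losing Psmc2, Psmd13 and Psmd14, and 38 in matNeu against GMP, losing Psmd10.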
